A study of Mus musculus with 6 samples.

Results

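The genes described here encode the subunits of the SWI/SNF chromatin remodeling complexes, read from RNA of mouse Melb-a melanoblasts. They were 31 named genes out of the 35275 gene IDs in the table of read counts, each matched to a single ID by its symbol. By assembly they fell into 3 genes of the BRD9-containing form (Brd9, Bicra, Bicral), 5 of the ARID1 form (Arid1a, Arid1b, Dpf1, Dpf2, Dpf3), 4 of the PBRM1 form (Pbrm1, Arid2, Brd7, Phf10) and 19 treated as shared. The membership rule used gene names only and no measured value.

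Melb-a is a single immortal melanoblast line of C57BL/6J origin, labelled as melanocytes from skin, so all samples share 1 line. The treated group received 10 µM iBRD9, an inhibitor of the BRD9 bromodomain, for 48 h (3 samples), and the control group received the vehicle DMSO for the same time (3 samples). Both groups had been moved from a growth medium with stem cell factor and fibroblast growth factor to a differentiation medium. That medium was DMEM with 10% serum, 2 nM of the hormone analog NDP-α-MSH and 200 nM of the phorbol ester PMA. One compound was used at 1 dose, so effects through BRD9 and other effects of the compound cannot be told apart. The labels call the samples independent without naming cultures. The p-values of single genes set the group difference against the spread between these samples, estimated with information shared over all tested genes.

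SWI/SNF complexes use the energy of ATP to move or evict nucleosomes, and each complex holds 1 ATPase, SMARCA4 (BRG1) or SMARCA2 (BRM). Around a common core, alternative subunits define separate forms: the ARID1 form with ARID1A or ARID1B and a DPF protein, the PBRM1 form with PBRM1, ARID2, BRD7 and PHF10, and the form with BRD9 and BICRA or BICRAL, which lacks SMARCB1 and SMARCE1. In melanocytes, SMARCA4 is known as a partner of the transcription factors MITF and SOX10 at pigment genes.

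The libraries held 22846391 to 29680952 counts. Melanocyte lineage markers were detected, with summed levels of 15287 to 16824 CPM (counts scaled by TMM to a common library size) with iBRD9 and 16086 to 18262 CPM with DMSO over 10 genes, although Ednrb was below 1 CPM on average in both groups. These sums are mostly Dct, Tyrp1 and Pmel, and 5 of the 10 markers were lower with iBRD9 and 1 was higher. The lower ones were Tyr, the rate-limiting enzyme of melanin synthesis (87.8 ± 3.72 CPM with iBRD9 and 537 ± 14.5 CPM with DMSO, SD, n = 3 each; log2 fold change -2.61), Sox10 (-0.92), Pax3 (-0.68), Tyrp1 (-0.66) and Mlana (-0.62), and Dct was higher (0.31). Markers of other cells moved too. The 5 Schwann cell markers used summed to 60.5 to 64.1 CPM with iBRD9 and 248 to 340.1 CPM with DMSO, with 4 of 5 lower and Ngfr near 0. The 7 fibroblast markers summed to 132 to 146 CPM with iBRD9 and 76.1 to 100.4 CPM with DMSO, with 2 higher and 1 lower. Most of these sums was Dcn, which was higher (120 ± 7.09 CPM with iBRD9 and 51.2 ± 7.38 CPM with DMSO). Col1a1 was the other higher one, at a low level (3.52 ± 0.877 CPM with iBRD9 and 0.679 ± 0.0336 CPM with DMSO). Col1a2 was lower (7.64 ± 0.699 CPM with iBRD9 and 29.6 ± 6.02 CPM with DMSO). Keratinocyte, endothelial and immune markers summed to at most 10.7 CPM in any library, with Krt5, Krt1, Ptprc and Cd3e at 0. Among them Cdh1 (-1.89) and Cd68 (-0.69) were lower. Kdr (2.07) and Csf1r (2.60) were higher, both below 1 CPM on average with DMSO. The part of these markers of other cells in the results below was not tested, and fewer cells of a type cannot be told apart from less RNA per cell. DMSO replicate 1 differed more from its group than the rest (chi-square per degree of freedom of 29.2 and 37.5 against them, where DMSO replicates 2 and 3 had 3.06). To a smaller degree iBRD9 replicate 1 also stood apart from its group (6.33 and 6.33, where iBRD9 replicates 2 and 3 had 1.93).

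Messenger RNAs for SWI/SNF subunits moved in both directions, mostly by less than 2-fold, and no assembly had all its members called in the same direction. In the BRD9-containing form all 3 values were positive, with 1 called. Of the 31 genes, 29 passed the filter on low counts and were tested with edgeR's quasi-likelihood test. A gene is called at a Benjamini-Hochberg adjusted p under 0.05 over all 13602 tested genes. With iBRD9, 10 members were higher, 6 were lower and 13 were not called. That is 55.2% of the tested members called, against 60.7% of all tested genes; 29.8% of all tested genes were called higher and 30.9% lower. The share of subunit genes called was near that background. Dpf3 passed the filter through its iBRD9 libraries alone, and without it 9 of 28 were higher and 6 lower. Over the 29 members the median log2 fold change was 0.11 and the median absolute change 0.30, against 0.01 and 0.39 over all tested genes. Without a filter on low counts the median was 0.071 for the members and 0.075 for all genes. A called change of at least 2-fold was found in 1 member, Dpf3, while 14.9% of all tested genes had one. The groups did not overlap in 20 members, 19 of them besides Dpf3, against 68.0% of all tested genes. Leaving out DMSO replicate 1 gave 13 members higher and 8 lower, where 74.0% of all tested genes were called.

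**Figure D1:**
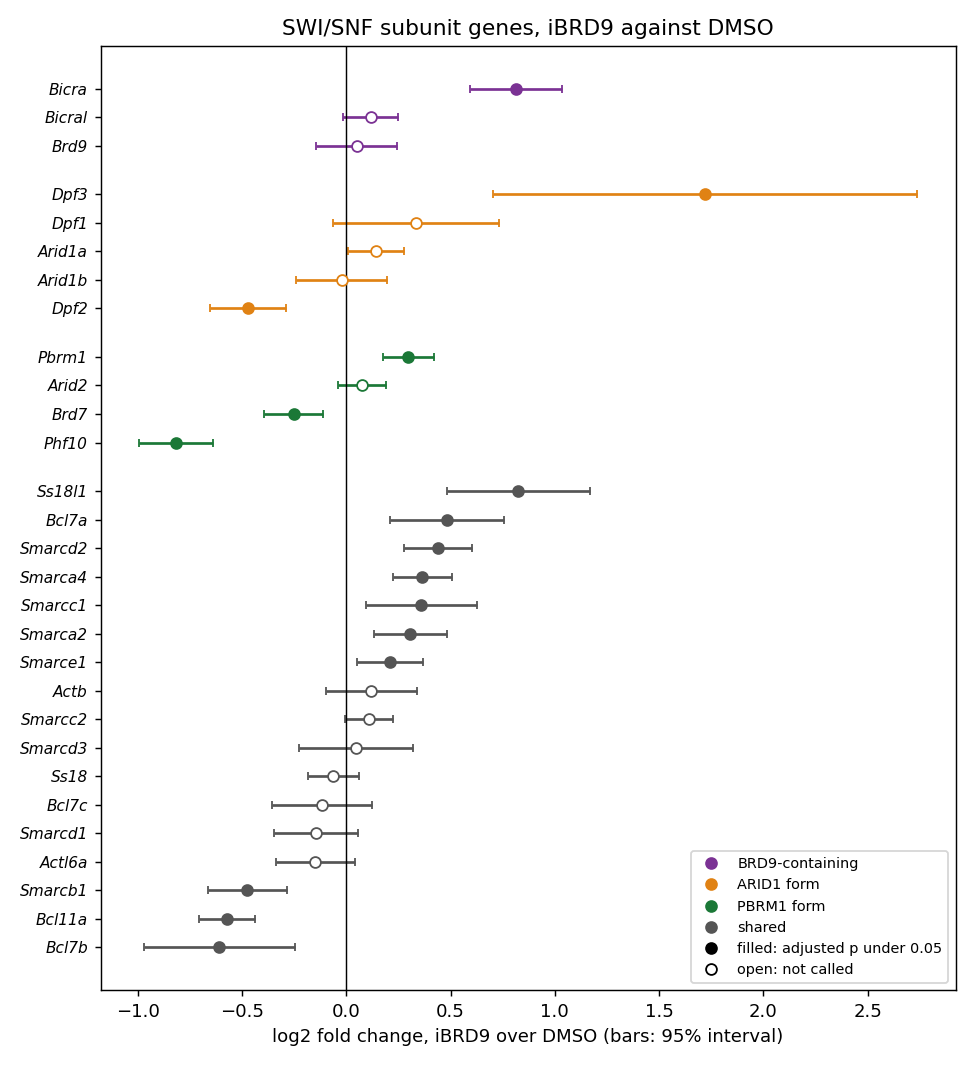
Log2 fold change (iBRD9 over DMSO, x axis) of the 29 tested SWI/SNF subunit genes, grouped by assembly and coloured by it. Points are edgeR estimates, bars their 95% intervals, and filled points are called: 10 lie right of 0 and 6 left of it, from Dpf3 at 1.72 to Phf10 at -0.82.

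Brd9, whose protein carries the bromodomain that the compound binds, is the gene where a response in the RNA of the target would be read. Its protein was not measured here. It stood at 38.8, 38.7 and 38.8 CPM in the iBRD9 libraries, against 41.2, 37.9 and 33.1 CPM in the DMSO libraries. The iBRD9 libraries lay within the DMSO range. The log2 fold change was 0.05 (SE 0.085, adjusted p = 0.624), with a 95% interval from -0.14 to 0.25 that leaves out a 1.5-fold change either way. The value was -0.036 without DMSO replicate 3, 0.116 without DMSO replicate 1 and 0.155 with library size alone, none of them called.

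The promoter sequences of the BRD9 gene and of strongly moved subunit genes are shown next, as the regulatory context of the genes whose RNA is described. They are RefSeq sequences from the GRCm38.p6 build, an older build than the GRCm39 named for the counts. Each runs over the 250 bases before the annotated start site, 5′ to 3′ on the gene's strand. Brd9 lies on the plus strand at chr13:73937561-73937810 (the first of 2 annotated windows), Ss18l1 on the plus strand at chr2:180042233-180042482, Phf10 on the minus strand at chr17:14961261-14961510 and Bcl7b on the plus strand at chr5:135168122-135168371. Ss18l1 is the most risen member with more than 1 CPM that has a promoter entry, and Phf10 and Bcl7b are the most fallen. Capitals mark matches, on either strand, to the GC box GGGCGG, the E-box CACGTG or the ETS core CCGGAAG, including overlapping matches.
Brd9: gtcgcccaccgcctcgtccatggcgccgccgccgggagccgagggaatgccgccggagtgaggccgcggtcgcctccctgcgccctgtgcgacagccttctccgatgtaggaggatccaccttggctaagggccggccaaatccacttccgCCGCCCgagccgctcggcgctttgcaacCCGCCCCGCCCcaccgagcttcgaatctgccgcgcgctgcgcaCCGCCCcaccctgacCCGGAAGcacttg
Ss18l1: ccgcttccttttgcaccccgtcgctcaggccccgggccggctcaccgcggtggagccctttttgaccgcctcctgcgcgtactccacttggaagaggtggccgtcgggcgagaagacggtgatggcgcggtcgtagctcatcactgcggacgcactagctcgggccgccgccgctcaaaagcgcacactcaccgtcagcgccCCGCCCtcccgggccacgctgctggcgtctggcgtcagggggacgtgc
Phf10: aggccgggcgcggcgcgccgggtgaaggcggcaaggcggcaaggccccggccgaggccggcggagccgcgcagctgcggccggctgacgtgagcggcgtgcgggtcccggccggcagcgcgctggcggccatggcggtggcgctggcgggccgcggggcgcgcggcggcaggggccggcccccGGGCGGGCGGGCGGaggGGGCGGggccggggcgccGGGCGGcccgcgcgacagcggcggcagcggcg
Bcl7b: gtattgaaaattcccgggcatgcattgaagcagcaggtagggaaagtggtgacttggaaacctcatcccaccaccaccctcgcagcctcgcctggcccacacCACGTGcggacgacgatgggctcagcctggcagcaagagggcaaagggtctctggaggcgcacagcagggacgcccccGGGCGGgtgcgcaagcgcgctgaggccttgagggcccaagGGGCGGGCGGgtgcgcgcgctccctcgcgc
Promoter windows were at hand for 24 of the 31 members; Ss18, Bcl7a, Actb, Bicra, Arid2, Smarce1 and Bicral had no entry. The GC box was in 19 of the 24 (79.2%), against 35.4% of 27025 genes with a window of the same length. Those genes were not limited to the ones tested here, so these shares do not compare the members with other expressed genes. CACGTG, an E-box that MITF and MYC bind, was in 3 members (Bcl7b, Bcl7c, Pbrm1; 12.5%), against 6.86% of genes. The other E-box bound by MITF, CATGTG, was in 0 of the 24 members, against 13.9% of genes. CCGGAAG was in Brd9, Smarca2 and Smarcc1 (12.5%, against 7.83% of genes). CCAAT was in 5 members (20.8%, against 37.5%), TATAAA in Smarcd2 and TGANTCA, the AP-1 motif, in Smarcb1 (4.17% each, against 14.3% and 7.82%), while TGACGTCA, the cAMP response element, was in 0 members (1.77% of genes). These are matches of letters and are not evidence of binding.

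In the BRD9-containing form, the scaffold gene Bicra rose and its paralog Bicral did not pass the test. BICRA and BICRAL (GLTSCR1 and GLTSCR1L) are alternative scaffold subunits that hold BRD9 in the complex. Bicra had 21.4, 19.4 and 21.3 CPM in the iBRD9 libraries, against 12.9, 10.8 and 11.7 CPM in the DMSO libraries. Every iBRD9 library was above every DMSO library. The log2 fold change was 0.81 (SE 0.096, adjusted p = 0.000203), a 1.76-fold rise. Bicral had 47.8, 49.3 and 47.5 CPM with iBRD9, against 44.4, 43.8 and 45.1 CPM with DMSO. Its groups did not overlap either, but the difference was small, at 0.12 on the log2 scale (adjusted p = 0.109, 95% interval -0.01 to 0.25). With library size as the only scaling Bicral passed (0.22, adjusted p = 0.0103); that scaling moved the median of all genes by 0.106 on the log2 scale. The counts of 1 gene higher and 0 lower in this form were 2 and 0 under that scaling.

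The ARID1 form held a DPF gene that fell beside ARID genes that did not pass the test. DPF proteins read acetylated or acylated histone H3 through paired PHD fingers, and ARID1A and ARID1B are alternative large subunits with an ARID DNA-binding domain. Dpf2, the DPF gene with the most RNA here, had 78.2, 80.3 and 80.9 CPM with iBRD9, against 97.5, 118 and 117 CPM with DMSO. All iBRD9 libraries were below all DMSO libraries, among which replicate 1 was the lowest. The log2 fold change was -0.47 (SE 0.080, adjusted p = 0.00121). Dpf1, which is known from neurons, had 4.37 ± 0.642 CPM with iBRD9 and 3.46 ± 0.555 CPM with DMSO (SD, n = 3 each), with overlapping groups (0.34, adjusted p = 0.126, and 0.21 without iBRD9 replicate 3). Dpf3, known from muscle and heart, was near the floor, with raw counts of 18, 12 and 11 with iBRD9, against 6, 3 and 2 with DMSO. Its log2 fold change of 1.72 (SE 0.445, adjusted p = 0.00977) had a 95% interval from 0.70 to 2.73, and none of the DMSO libraries (0 of 3) reached the level the filter asks for.

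Arid1a had 114, 114 and 120.2 CPM with iBRD9, against 111, 103 and 102 CPM with DMSO. The groups did not overlap, yet the difference of 0.14 did not pass (adjusted p = 0.0632). It passed without DMSO replicate 1 (0.17, adjusted p = 0.00150), with a filter at 1 CPM (0.16, adjusted p = 0.0388) and with library size alone (0.25, adjusted p = 0.0105). Arid1b had 252, 246 and 243 CPM with iBRD9, against 211, 272 and 269.7 CPM with DMSO. The iBRD9 libraries lay between DMSO replicate 1 and the other DMSO libraries, so the value of -0.02 (adjusted p = 0.845) depended on that library. It was -0.14 (adjusted p = 0.00385) without DMSO replicate 1, 0.031 without DMSO replicate 2, 0.025 without DMSO replicate 3 and 0.086 with library size alone. The form as a whole had 1 member higher and 1 lower. The higher one was Dpf3, which passed the filter through its iBRD9 libraries alone, and no other member of the form was called higher. Without DMSO replicate 1 the form had 2 higher, Dpf3 and Arid1a, and 2 lower.

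Members of the PBRM1 form moved apart: Phf10 and Brd7 fell and Pbrm1 rose. PHF10 is a paired PHD finger subunit of this form, BRD7 is a bromodomain protein related to BRD9, and PBRM1 carries an array of bromodomains. Phf10 had 56.6, 47.6 and 48.5 CPM with iBRD9, against 88.6, 90.9 and 89.4 CPM with DMSO. All iBRD9 libraries lay far below the DMSO libraries, and DMSO replicate 1 did not stand apart. The log2 fold change was -0.82 (SE 0.077, adjusted p = 6.38e-05), the largest fall among the members. An exon of 1600012H06Rik on the opposite strand covers part of Phf10 (9.56% of its exon length in GENCODE M21), and that gene was higher with iBRD9 (0.34, adjusted p = 0.0110). Brd7 had 113, 114 and 120.0 CPM with iBRD9, against 132, 135 and 147 CPM with DMSO. The groups did not overlap, and the change was small (-0.25, SE 0.062, adjusted p = 0.00750); it was -0.15 (adjusted p = 0.0506) with library size alone.

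Pbrm1 was the most abundant transcript of this form per exon length. It had 419.7, 417 and 424 CPM with iBRD9, against 354, 340.3 and 331 CPM with DMSO. Replicates agreed closely in both groups, which did not overlap, and the log2 fold change was 0.30 (SE 0.053, adjusted p = 0.00157). Arid2, the ARID subunit of the form, had 146, 147 and 147 CPM with iBRD9, against 139, 137 and 142 CPM with DMSO. The groups were separate by a narrow gap, and the difference of 0.08 did not pass (adjusted p = 0.210, 95% interval -0.04 to 0.19); with library size alone it was 0.18 (adjusted p = 0.0111). With library size alone this form had 2 members higher and 1 lower, where TMM scaling gave 1 and 2.

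**Figure D2:**
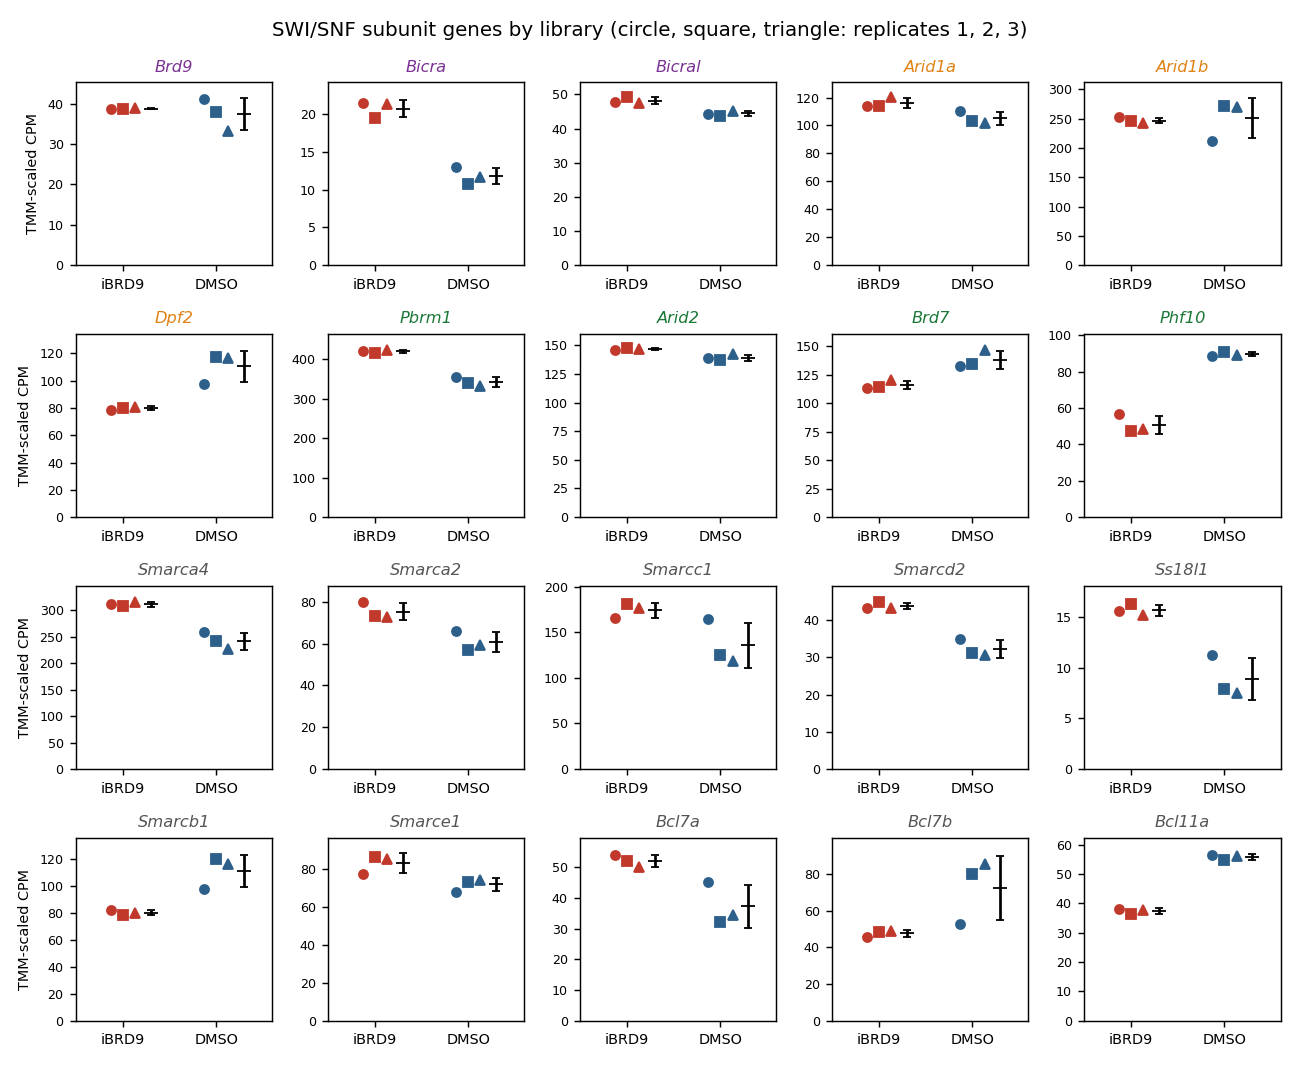
TMM-scaled CPM (y axis, from 0) of 20 SWI/SNF subunit genes in the 3 iBRD9 and 3 DMSO libraries, each replicate with its own symbol, and the mean ± SD of each group in black. Gene names are coloured by assembly as in the plot of fold changes. Phf10, Bicra and Bcl11a show groups well apart, and DMSO replicate 1 lies toward the iBRD9 libraries in Smarcc1, Bcl7a, Bcl7b and Ss18l1.

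Both ATPase genes rose by a similar amount. Smarca4 had 311, 307 and 315 CPM with iBRD9, against 258, 241 and 226 CPM with DMSO. Every iBRD9 library exceeded every DMSO library, and the log2 fold change was 0.36 (SE 0.062, adjusted p = 0.00123). Smarca2 had 79.8, 73.1 and 72.5 CPM with iBRD9, against 66.2, 56.7 and 59.3 CPM with DMSO, again without overlap (0.31, SE 0.077, adjusted p = 0.00825). Per kb of exon Smarca4 was 8.40 to 9.58 times as abundant as Smarca2 across the libraries, and the log2 ratio of their counts differed by 0.06 between the groups (exact permutation p = 0.400; 0.023 to 0.105 on leaving out 1 library).

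Among the core scaffold genes, Smarcc1 and Smarcd2 rose. SMARCC1 and SMARCC2 form the dimer on which complexes are built, and the SMARCD proteins bind it. Smarcc1 had 165, 181 and 177 CPM with iBRD9, against 164, 125 and 118 CPM with DMSO. DMSO replicate 1 nearly reached the iBRD9 libraries, and the log2 fold change was 0.36 (SE 0.116, adjusted p = 0.0255). The call was lost when any 1 library other than DMSO replicate 1 was left out, with values of 0.40, 0.33 and 0.35 without iBRD9 replicates 1, 2 and 3 and of 0.30 and 0.26 without DMSO replicates 2 and 3 (adjusted p = 0.0514 to 0.0950). Smarcc2 had 168 ± 3.84 CPM with iBRD9 and 155 ± 2.78 CPM with DMSO (SD, n = 3 each), a change of 0.11 that did not pass (adjusted p = 0.0950). It passed without DMSO replicate 1 (0.11, adjusted p = 0.0237), with a filter at 1 CPM (0.13, adjusted p = 0.0471) and with library size alone (0.21, adjusted p = 0.00765).

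The SMARCD genes parted. Smarcd2, whose protein is known for its part in granulocyte development, had 43.3, 44.8 and 43.3 CPM with iBRD9, against 35.0, 31.3 and 30.6 CPM with DMSO. Its groups were well apart, and the log2 fold change came to 0.44 (SE 0.072, adjusted p = 0.00102). Smarcd1, the paralog found with BRD9, had 68.3, 71.1 and 66.8 CPM with iBRD9, against 86.7, 71.5 and 70.0 CPM with DMSO, and did not pass (-0.15, adjusted p = 0.180). Its value was -0.050 without DMSO replicate 1 and -0.043 with library size alone. Smarcd3, known from the heart, was low at 7.39 ± 0.710 CPM with iBRD9 and 7.15 ± 0.497 CPM with DMSO (SD, n = 3 each; 0.05, adjusted p = 0.746; -0.035 to 0.096 on leaving out 1 library and 0.152 with library size alone). Chpf2 exons on the opposite strand cover 48.2% of the Smarcd3 exon length, and strand was not stated for the counting, so the Smarcd3 value is uncertain. Opposite-strand exons also cover 12.7% of Smarcd1, 11.6% of Actl6a and 11.3% of Bicral. The gene over Actl6a, Mrpl47, had 24.6 CPM with iBRD9 and 24.3 CPM with DMSO. Gm17349 over Smarcd1 and Gm26904 over Bicral were below 1 CPM on average in both groups.

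SMARCB1 and SMARCE1, core subunits of the ARID1 and PBRM1 forms, were encoded by genes that moved in opposite directions. Smarcb1 had 81.9, 78.5 and 79.5 CPM with iBRD9, against 97.3, 119.8 and 116 CPM with DMSO. The iBRD9 libraries were all lower, and DMSO replicate 1 was the lowest of its group (-0.47, SE 0.083, adjusted p = 0.00140). Smarce1 had 77.1, 86.3 and 85.3 CPM with iBRD9, against 67.9, 73.2 and 73.9 CPM with DMSO. This rise was small (0.21, SE 0.069, adjusted p = 0.0279) and was lost without iBRD9 replicate 2 (0.18, adjusted p = 0.118), without iBRD9 replicate 3 (0.19, adjusted p = 0.110) or without DMSO replicate 2 (0.22, adjusted p = 0.0698). Of the 50-base words in Smarce1 transcripts, 15.0% occur in transcripts of other genes, pseudogenes among them.

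The accessory subunits showed the widest range of the shared set. SS18 and SS18L1 (CREST) are alternative partners in the ARID1 and BRD9-containing forms, and SS18L1 is known from neurons. Ss18l1 had 15.7, 16.3 and 15.2 CPM with iBRD9, against 11.2, 7.89 and 7.55 CPM with DMSO. All iBRD9 libraries were higher and DMSO replicate 1 stood nearest to them; the log2 fold change was 0.82 (SE 0.150, adjusted p = 0.00171). Ss18 had 115 ± 4.02 CPM with iBRD9 and 120.3 ± 1.09 CPM with DMSO (SD, n = 3 each), a difference of -0.06 that did not pass (adjusted p = 0.331) and was 0.042 with library size alone.

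The BCL7 genes, which encode small subunits found in all forms, took different directions. Bcl7a had 53.9, 52.2 and 50.1 CPM with iBRD9, against 45.3, 32.2 and 34.4 CPM with DMSO (0.48, SE 0.120, adjusted p = 0.00822). Bcl7b had 45.7, 48.3 and 48.8 CPM with iBRD9, against 52.7, 79.7 and 85.2 CPM with DMSO (-0.61, SE 0.158, adjusted p = 0.00980). In both genes the groups were apart and DMSO replicate 1 lay on the iBRD9 side of its group; without it Bcl7a had a value of 0.64 and Bcl7b of -0.80. Bcl7c had 30.6, 32.0 and 34.3 CPM with iBRD9, against 29.6, 36.6 and 38.7 CPM with DMSO, and passed only without DMSO replicate 1 among the settings run (-0.12, adjusted p = 0.355, against -0.23, adjusted p = 0.00219). It was -0.046 without DMSO replicate 3 and -0.0082 with library size alone.

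BCL11A, a zinc finger repressor known from globin switching and from the ARID1 form, was encoded by a gene that fell. Bcl11a had 38.2, 36.4 and 37.8 CPM with iBRD9, against 56.4, 54.6 and 56.1 CPM with DMSO. Both groups were tight and far apart, and the log2 fold change was -0.57 (SE 0.059, adjusted p = 9.34e-05). Its paralog Bcl11b had raw counts of 0, 0 and 0 with iBRD9, against 0, 1 and 1 with DMSO, and was not tested. Of the actin-related subunit genes, Actl6a, the form of dividing cells, had 65.3, 75.5 and 77.6 CPM with iBRD9, against 86.4, 79.4 and 76.3 CPM with DMSO. These groups overlapped (-0.15, adjusted p = 0.151), and the value was -0.077 without iBRD9 replicate 1 and -0.044 with library size alone. Actl6b, the neuronal form, had raw counts of 1, 0 and 0 with iBRD9, against 0, 0 and 1 with DMSO, and was not tested. Actb, an actin of the cytoskeleton as well as of the complex, had 1734 ± 116 CPM with iBRD9 and 1594 ± 193 CPM with DMSO (SD, n = 3 each; 0.12, adjusted p = 0.298), and 0.22 (adjusted p = 0.000947) without DMSO replicate 1. The Actb value was 0.052 without DMSO replicate 3, 0.078 without DMSO replicate 2, 0.078 without iBRD9 replicate 3 and 0.22 (adjusted p = 0.0928) with library size alone. It shares 9.12% of its 50-base words with other genes, Actg1 among them.

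In all, the shared set had 7 genes higher, 3 lower and 7 not called among 17 tested, a median log2 fold change of 0.11. That is 58.8% called, near the 60.7% of all tested genes. Over all tested genes 29.8% were higher and 30.9% lower, with a median of 0.01. The BRD9-containing form had a median of 0.12 (3 tested), the ARID1 form of 0.14 (5 tested, Dpf3 included) and the PBRM1 form of -0.09 (4 tested). Differences between these assemblies were not tested. In 14 of the 16 called members (Dpf3 included) DMSO replicate 1 lay on the iBRD9 side of the mean of DMSO replicates 2 and 3, Bcl11a and Smarce1 being the others; over all called genes this held for 76.8%.

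Levels of different genes were compared per kb of exon, using GENCODE M21 exon lengths and the same scaled counts. Leaving out Actb, Smarca4 (48.0 ± 0.650 CPM per kb with iBRD9 and 37.3 ± 2.47 with DMSO) and Pbrm1 (47.5 ± 0.418 with iBRD9 and 38.7 ± 1.32 with DMSO) were the highest, and the values of the 2 genes overlapped within each group. In the BRD9-containing form Bicral (7.03 ± 0.145 with iBRD9 and 6.49 ± 0.1005 with DMSO) exceeded Brd9 (5.58 ± 0.00734 with iBRD9 and 5.39 ± 0.586 with DMSO). Bicra (2.61 ± 0.142 with iBRD9 and 1.49 ± 0.137 with DMSO) was the lowest; the 3 genes kept this order in every library. Arid1b (19.6 ± 0.379 with iBRD9 and 19.9 ± 2.73 with DMSO) was above Arid1a (10.1 ± 0.316 with iBRD9 and 9.16 ± 0.415 with DMSO) in every library. Dpf2 (12.3 ± 0.220 with iBRD9 and 17.0 ± 1.75 with DMSO) was far above Dpf1 (0.814 ± 0.119 with iBRD9 and 0.644 ± 0.103 with DMSO) and Dpf3. Brd7 per kb exceeded Brd9 throughout, with a Brd9/Brd7 ratio of 0.170 to 0.259. These SDs are over 3 libraries a group, and differing isoform use would alter such levels.

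**Figure D3:**
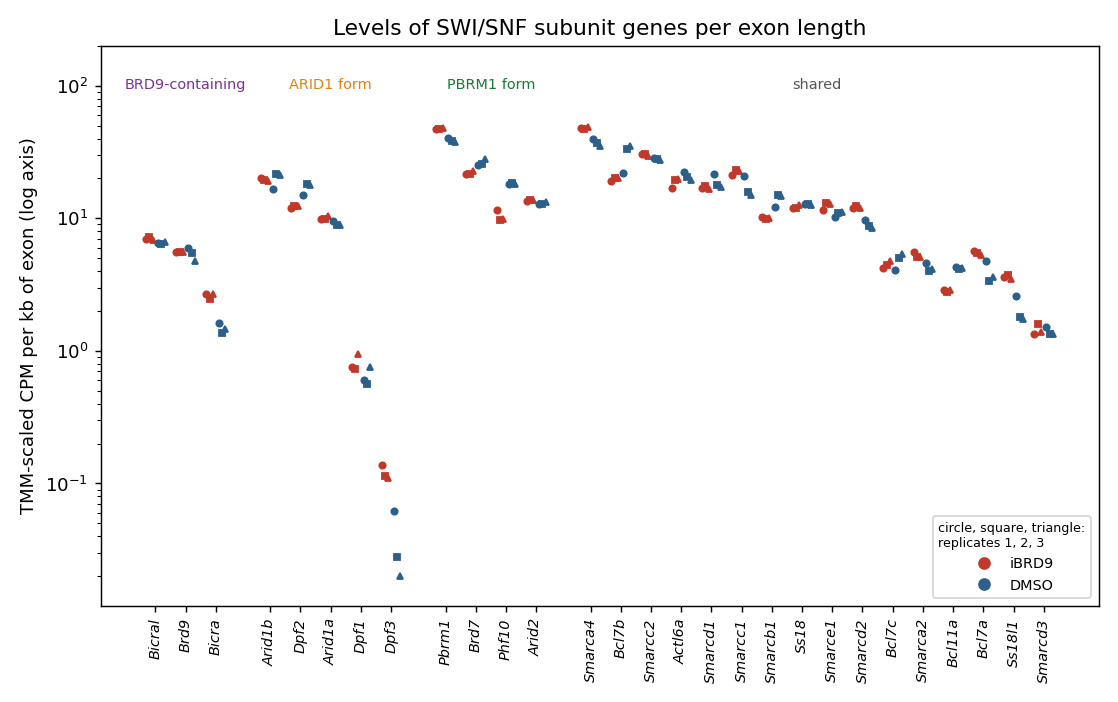
TMM-scaled CPM per kb of exon (y axis, log scale) of 28 tested SWI/SNF subunit genes in each library, by assembly and ordered by the DMSO mean; Actb is left out. Smarca4 and Pbrm1 stand highest, at 34.9 to 48.7 CPM per kb, and Dpf3 lowest.

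Within a library, the balance of related subunit genes can be read without scaling between libraries. Of 15 listed pairs, 13 had both genes tested, and no pair passed an exact permutation test after adjustment over the 13 (adjusted p = 0.144 at the lowest). The smallest raw p that 3 against 3 libraries allow is 0.1. The groups did not overlap in 9 pairs, or in 8 of the 12 pairs without Dpf3, which passed the filter through its iBRD9 libraries alone. Pairs share genes, and no such share was computed over other gene pairs; for single genes it was 68.0%. The log2 ratio of Smarcd1 to Smarcd2 counts was 0.66, 0.67 and 0.62 with iBRD9, against 1.31, 1.19 and 1.19 with DMSO, a difference of -0.58 (exact permutation p = 0.1). Every iBRD9 library thus held relatively more Smarcd2. The Ss18 to Ss18l1 ratio was 2.84, 2.80 and 2.98 with iBRD9, against 3.43, 3.93 and 3.98 with DMSO (-0.91), and the Bicra to Bicral ratio was -1.16, -1.34 and -1.15 with iBRD9, against -1.78, -2.02 and -1.95 with DMSO (0.70). For Bcl7a to Bcl7b it was 0.24, 0.11 and 0.04 with iBRD9, against -0.22, -1.31 and -1.31 with DMSO (1.07), where DMSO replicate 1 lay nearer to the iBRD9 libraries than to its own group. The Brd9 to Brd7 ratio was -1.54, -1.56 and -1.63 with iBRD9, against -1.68, -1.83 and -2.15 with DMSO (0.31), with Brd7 lower and Brd9 not called; without DMSO replicate 3 the difference was 0.176. The pair Arid1a and Arid1b overlapped, as did Smarcc1 and Smarcc2, Bcl7a and Bcl7c, and the ATPase genes.

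**Figure D4:**
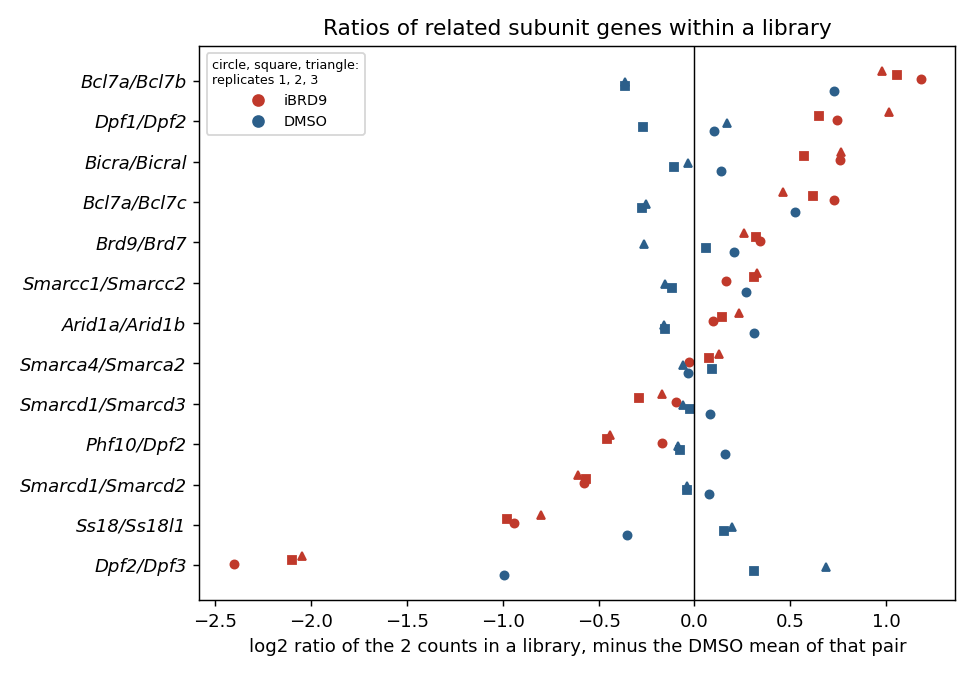
Log2 ratio of the counts of 2 related subunit genes in each library, minus the DMSO mean of that pair (x axis), for 13 pairs (y axis, iBRD9 drawn above DMSO). The groups are apart in 9 pairs, one of them with Dpf3, which passed the filter through its iBRD9 libraries alone, and DMSO replicate 1 (blue circles) lies toward the iBRD9 libraries in Bcl7a/Bcl7b, Bcl7a/Bcl7c, Ss18/Ss18l1 and Dpf2/Dpf3.

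Other families of ATP-dependent remodelers also moved in both directions. Of 9 tested ISWI genes, 4 were higher and 2 lower (median 0.15), led by Baz2a (196 ± 9.14 CPM with iBRD9 and 134 ± 8.91 CPM with DMSO, 0.55), a subunit of the nucleolar remodeling complex. Baz2b (0.28) was the next, while Rsf1 (-0.26) and Baz1a (-0.16) were lower. Of these ISWI genes, rises numbered 2 without iBRD9 replicate 3 or DMSO replicate 2, and the falls 0 without any 1 library except DMSO replicate 1, whose omission left 2. Of 19 CHD and NuRD genes, 6 were higher and 10 lower (median -0.17). The ATPase gene Chd2 (101 ± 8.48 CPM with iBRD9 and 222 ± 50.4 CPM with DMSO, -1.13) and Chd3 (118 ± 6.02 CPM with iBRD9 and 238 ± 9.37 CPM with DMSO, -1.02) fell the most, while Chd8 (0.40) and Chd6 (0.32) rose. Of 20 genes of the INO80, SRCAP and TIP60/p400 complexes, 5 were higher and 5 lower (median -0.03; 8 lower without DMSO replicate 1). The scaffold gene Trrap (458 ± 9.05 CPM with iBRD9 and 255 ± 17.5 CPM with DMSO, 0.84) and the ATPase gene Ep400 (382 ± 6.86 CPM with iBRD9 and 223 ± 12.9 CPM with DMSO, 0.78) rose, and Ino80e (-0.74) and Ino80b (-0.55) fell (SD, n = 3 each). By list, 6 of 9, 16 of 19 and 10 of 20 tested genes were called, beside 55.2% of SWI/SNF members and 60.7% of all genes.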

How the data were processed

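Poly(A) RNA of 6 libraries (3 iBRD9, 3 DMSO) was counted by the authors, who deposited raw read counts per Ensembl gene ID, without normalization. The build GRCm39, Bowtie2 2.4.5 and CASAVA 1.8.2 stand in the submitters' processing notes. How reads were assigned to genes, from which annotation and with which strand setting, is not stated in the sources at hand. Columns were matched to samples by treatment and replicate number in the header. Of 35275 IDs, 34490 had a symbol; the others held 0.0899% of counts.

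Genes were kept by filterByExpr (minimum count 10), scaled by TMM (trimmed mean of M values) and tested two-sided with edgeR 4.0.16 under R 4.3.3 (quasi-likelihood, robust, treatment as sole term; Benjamini-Hochberg over 13602 genes). The SE is the log2 fold change divided by the square root of F. The procedure was tested on simulated data. Exon lengths, overlaps and shared 50-base words came from GENCODE M21 (GRCm38), used for no coordinates. Ratios used an offset of 0.5. A gene of the Schwann cell list is not reported here and was left out of its sum. Members, lists and tests were chosen with earlier results of these data known. All members are accounted for; of the other remodelers at most 2 rises and 2 falls per list are named by size, and other genes were chosen after their values were seen. Alternatives were DESeq2 size factors, library size alone, DESeq2 1.42.0, limma-voom (limma 3.58.1), no filter, a 1 CPM filter, a replicate block, an adjusted p under 0.01, leaving out each library, and an offset of 5.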

Additional observations from a re-analysis of the deposited data

How the results depend on the processing

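Over 14 alternatives, the count of members called higher ran from 8 to 14 and lower from 5 to 8, all within 1.5 times the reported 10 and 6. The members' median log2 fold change of 0.11 was 0.071 without a filter (0.075 over all genes). With library size alone it was 0.21, where the median over all genes was 0.113. That scaling gave 4999 of all genes higher and 3385 lower, against 4057 and 4205 with TMM. It also gave 2 higher members in the BRD9-containing form, 2 in the ARID1 form and 2 in the PBRM1 form. The PBRM1 form then had 1 lower, and 0 ISWI genes were lower. Leaving out 1 library at a time gave 1 to 2 members of the ARID1 form higher and 1 to 2 lower, 2 to 5 ISWI genes higher and 0 to 2 lower, and 4 to 8 genes of INO80, SRCAP and TIP60/p400 lower. With library size alone and on leaving out any 1 library, Dpf3 was among the higher ARID1 form members. The 1 CPM filter dropped Dpf3, and there Arid1a was the 1 member of that form called higher. ISWI genes called lower numbered 1 with DESeq2, without a filter, with the 1 CPM filter and with the replicate block, and 0 at an adjusted p under 0.01, where 1 ISWI gene was called higher. Signs turned in members that were not called: Arid1b was 0.086 and Ss18 0.042 with library size alone, and leaving out 1 library gave -0.036 to 0.116 for Brd9, -0.035 to 0.096 for Smarcd3 and -0.14 to 0.031 for Arid1b. Several members that were not called moved by over 1.5 times without changing sign, among them Smarcd1 (-0.050 without DMSO replicate 1), Actl6a (-0.077 without iBRD9 replicate 1) and Bcl7c (-0.0082 with library size alone). The cause was not tested. Same-numbered libraries deviated together with correlations of 0.118, 0.060 and 0.025, and 2 of 3 iBRD9 libraries correlated best with the DMSO library of their number. Such weak correlations do not decide whether the numbers mark pairs. The labels state no block, so the numbers were not taken as pairs in the main test. The replicate block gave 10 members higher and 6 lower, and 7937 of all genes called against 8262. Few counts limit Dpf3, Dpf1, Actl6b and Bcl11b, and 3 libraries a group limit the ratio tests.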
